A study of Mus musculus with 12 samples.

Results

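The genes described here encode the heat shock proteins and their J-domain partners, together with 5 regulators and enzymes of the cellular stress response, as read in mouse hippocampus. A gene was taken when its probe set carried exactly 1 annotated symbol and that symbol began with Hspa, Hspb, Hspd, Hspe, Hsph, Hsp90 or Dnaj, or was Hmox1, Ddit3, Xbp1, Pdia4 or Ppp1r15a. The rule uses names and no measured change, but the genes were chosen with earlier results of these data known. It found 52 of the 8251 genes with 1 symbol, on 70 of 12422 tested probe sets, and each gene is represented by its probe set with the highest mean over the 12 arrays. For 39 genes that was the only probe set, and 13 genes had several. A pair of probe sets that carried several symbols was left out. The constitutive cytosolic chaperone gene Hsp90ab1 had no probe set with 1 symbol and is not analysed here.

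Chaperones bind unfolded stretches of other proteins and release them for another attempt at folding. HSP70 proteins do so in cycles of ATP hydrolysis that J-domain (DNAJ) proteins start and exchange factors such as the HSP110 proteins end, while HSP90, the mitochondrial chaperonin and the small heat shock proteins hold or enclose particular clients. Damaged protein in the cytosol activates the factor HSF1, which induces many of these genes, and unfolded protein in the endoplasmic reticulum (ER) activates the sensors ATF6, IRE1 and PERK, whose outputs include Hspa5, Dnajb9, Xbp1, Ddit3 and Ppp1r15a. In brain, seizures are a classical inducer of heat shock genes in neurons, and several stress genes also belong to the early transcriptional response to synaptic activity.

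The arrays came from 4 groups of 3. Control mice and mutants lacking CREB and CREM, per the series title, were injected into the peritoneum with saline or with 20 mg/kg kainate, an agonist of glutamate receptors that causes seizures, and hippocampi were taken 1 h later. The animals were littermates of both sexes, 5 to 6 weeks old, caged singly and handled over 5 days. Each array measured RNA pooled from 3 animals, so that a group rests on 9 animals and the replicate is the pool. How the disruption was made, in which cells and on which strain is not in the labels.

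Values are log2 expression values, so that a difference of 1 is a doubling. The 3 probe sets of Creb1 and the pair for Crem lay low on the array, and their averaged differences between mutants and controls ran from -0.12 to -0.09 and from -0.29 to -0.25, none past the test (smallest adjusted p = 0.141). Which exons were removed is not stated, so these probe sets do not check the labels. CREB and CREM are related activators and repressors that bind cAMP response elements. Neuronal markers were bright in all groups, with a mean over 7 measured markers between 9.78 and 10.27. Microglial and astrocyte markers are given beside the genotype results. No marker of oligodendrocytes (5 measured), endothelium (7), choroid plexus (2) or neighbouring tissue (4) passed in any contrast, nor did any neuronal marker, and 1 of 2 blood markers was higher after kainate. The control kainate replicate 3 array stood apart: its interquartile range was 3.74, against 4.40 to 4.61 on the other 11 arrays, and the mean of the 52 genes was 7.45 on it, against 7.63 to 7.75 elsewhere.

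Kainate raised 3 of the 52 genes within 1 h when averaged over genotypes, and lowered none by the same test. A fit with replicate 1 as a batch called 7, among them falls of Hspd1, Hspb8 and Hspa2, as given with the genes. The share of all probe sets called by that fit is not given here, so its count has no background to be read against. The 3 of the main fit were Ppp1r15a, Dnajb1 and Dnajb9. Ppp1r15a directs the phosphatase that lifts the translational block of the stress response (log2 change 1.76, SE 0.22, n = 6 arrays per treatment). Dnajb1 is the main inducible J-domain partner of cytosolic HSP70 (1.14, SE 0.18), and Dnajb9 is a J-domain protein of the ER lumen (0.81, SE 0.13). Dnajc9, a J-domain chaperone of histones, passed in no kainate contrast but was higher in mutants than in controls (0.57, SE 0.07, averaged over treatments). The other 48 genes, among them the inducible HSP70 genes Hspa1a and Hspa1b, passed in none of the 7 contrasts of the main fit.

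These counts are to be read against all probe sets tested with limma at an adjusted p of 0.05. Averaged over genotypes, kainate moved 3 of 52 genes, where 0.942% of all probe sets passed. In control mice 1 of 52 passed (Ppp1r15a; 0.33% of all), in mutants 1 (Dnajb9; 0.298% of all), and both rose. Mutants differed from controls in 0 of 52 genes under saline (0.137% of all), in 1 under kainate (Dnajc9; 0.354% of all) and in 1 when averaged over treatments (Dnajc9; 0.612% of all). The kainate response itself differed between genotypes in 0 of 52 genes and 0% of all probe sets. The calls in mutants alone and under kainate alone were lost when any 1 of several arrays was left out, as given with each gene. In bulk tissue a lower value can mean fewer cells of a type or less RNA per cell, and these cannot be told apart.

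At an unadjusted p under 0.05 the counts were larger. The shares beside them cover probe sets of all levels, while the 52 genes are mostly bright. No share among probe sets of like level is given here, so a larger share is not read as a result about the list. In control mice 7 of 52 genes, or 13.5%, passed (3 higher, 4 lower) against 7.37% of all probe sets. In mutants 6, or 11.5%, passed (4 higher, 2 lower) against 6.28%, and averaged over genotypes 11, or 21.2%, passed (4 higher, 7 lower) against 11.9%. The genotype difference passed in 1 gene under saline (1.92% of the 52, against 2.57%), in 7 under kainate (13.5%, against 4.96%) and in 5 when averaged (9.62%, against 5.98%). The interaction, meaning the kainate response in mutants minus that in controls, passed in 3 genes at this unadjusted level (5.77%, against 0.861%): Dnajb9, Ppp1r15a and Dnajc4.

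The promoters of these 5 genes are shown because they carry every call of the main fit and the smallest p-values of the interaction. Each is the 250 bases before the annotated start of the RNA in RefSeq's GRCm38.p6, read 5′ to 3′ on the gene's strand, with the outermost start taken where a gene has several. Capitals mark every match, on either strand, to the cAMP response element TGACGTCA or its core TGACG, to CCACG, a part of the ER stress element, and to the heat shock element cores GAANNTTC and TTCNNGAA. TGACG lies within TGACGTCA, so a match to the longer motif is also one to the shorter.
Ppp1r15a (chr7:45526269-45526518, minus strand): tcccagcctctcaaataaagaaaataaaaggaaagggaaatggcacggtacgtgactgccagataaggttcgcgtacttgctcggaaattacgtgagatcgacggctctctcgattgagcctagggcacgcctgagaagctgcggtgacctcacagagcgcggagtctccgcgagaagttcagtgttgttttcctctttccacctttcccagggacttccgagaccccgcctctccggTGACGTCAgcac
Dnajb1 (chr8:83607925-83608174, plus strand): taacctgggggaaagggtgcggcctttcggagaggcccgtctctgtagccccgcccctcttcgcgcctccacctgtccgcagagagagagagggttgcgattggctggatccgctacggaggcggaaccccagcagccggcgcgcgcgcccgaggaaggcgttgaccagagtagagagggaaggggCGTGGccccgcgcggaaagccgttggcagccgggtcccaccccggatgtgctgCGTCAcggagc
Dnajb9 (chr12:44210069-44210318, minus strand): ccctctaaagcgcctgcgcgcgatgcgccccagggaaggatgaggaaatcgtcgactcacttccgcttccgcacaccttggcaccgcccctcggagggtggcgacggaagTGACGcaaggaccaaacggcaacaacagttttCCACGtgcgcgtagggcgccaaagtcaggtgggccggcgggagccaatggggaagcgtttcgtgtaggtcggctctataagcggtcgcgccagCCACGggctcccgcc
Dnajc9 (chr14:20388911-20389160, minus strand): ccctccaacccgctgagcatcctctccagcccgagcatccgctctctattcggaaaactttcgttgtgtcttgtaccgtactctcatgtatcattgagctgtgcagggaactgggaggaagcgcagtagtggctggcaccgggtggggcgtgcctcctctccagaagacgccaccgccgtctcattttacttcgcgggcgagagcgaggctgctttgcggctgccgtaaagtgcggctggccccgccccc
Dnajc4 (chr19:6992583-6992832, minus strand): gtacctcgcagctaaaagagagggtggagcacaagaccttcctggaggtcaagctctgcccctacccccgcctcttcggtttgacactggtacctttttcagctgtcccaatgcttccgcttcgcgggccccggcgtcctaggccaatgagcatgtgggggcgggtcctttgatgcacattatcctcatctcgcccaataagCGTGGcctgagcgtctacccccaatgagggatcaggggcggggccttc

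Ppp1r15a was the only one of the 44 genes with a promoter in the table to hold the full TGACGTCA, at -12 to -5 from the start, which is 1 of their 56 windows (1.79%) against 1.55% of all 32851 windows. Dnajb1 held the core TGACG on the opposite strand at -11 to -7, and Dnajb9 held it at -140 to -136 with CCACG at -108 to -104 and at -15 to -11. The window of Dnajc9 held none of the marked motifs, and that of Dnajc4 held CCACG alone. Over the 56 windows, TGACG occurred in 42.9% (17.8% of all windows), CCACG in 44.6% (28.3%), GAANNTTC in 14.3% (6.69%) and TTCNNGAA in 14.3% (7.17%). The windows are not independent. Some genes, such as Dnajb6 and Hsph1, gave several windows with the same matches at shifted positions. Hspa1a and Hspa1b held their matches at the same positions. Hspd1 and Hspe1, which lie head to head, held heat shock element cores with the same spacing, so the same bases may be counted for both. The set of all windows was counted in the same way. The CCAAT box, searched on both strands but not capitalised, occurred in 44.6% (33.8%). Heat shock element cores lay in the windows of 10 genes (Hspa1a, Hspa1b, Hsph1, Hspd1, Hspe1, Hspb1, Dnaja1, Dnajb4, Dnajb6 and Dnajc10), and in none of the 5 printed. A match is a run of letters and was not tested for binding, and no match says only that these letters are not in this window.

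The regulators of the stress response open the account. Ppp1r15a, also called GADD34, stood at 3.12, 2.79 and 2.94 on the control saline arrays and at 6.06, 5.29 and 4.79 after kainate. In mutants it stood at 3.68, 3.09 and 2.98 under saline and at 4.36, 4.76 and 3.89 under kainate. Every kainate array lay above every saline array of the same genotype, and every control kainate array lay above every mutant kainate array. In controls it rose by 2.43 on the log2 scale (SE 0.32, adjusted p = 0.00655 by limma, n = 3), and it passed with each of the 12 arrays left out in turn, with adjusted p up to 0.0448.

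In mutants the Ppp1r15a change was 1.09 (SE 0.32), which did not pass (adjusted p = 0.422). The difference between these responses was -1.34 (SE 0.45, 95% interval -2.34 to -0.35, unadjusted p = 0.013) and did not pass after adjustment (adjusted p = 0.939). Under kainate the mutants stood 1.04 below the controls (fitted difference -1.04, SE 0.32, adjusted p = 0.512), and under saline 0.30 above (SE 0.32, adjusted p = 1). The lower response in mutants is therefore a measured difference that the test over all probe sets did not call. Without the control kainate replicate 3 array, the lowest of its group, the difference was -1.64. The probe set lies at percentile 45.9 of the array's levels by its mean over all arrays. Within groups it stood at percentile 26.8 in control saline, beside dim genes such as Hspb1 (28.9), and at 59.7 in control kainate, 33.9 in mutant saline and 50.6 in mutant kainate. No measure of background was used here, so no fold is given for this gene.

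The other regulators showed no such change. Ddit3, which encodes the factor CHOP of the terminal unfolded protein response, stood at 6.18, 6.49 and 6.51 in control saline, 6.28, 6.69 and 6.00 in control kainate, 6.49, 6.32 and 6.52 in mutant saline and 6.47, 6.90 and 6.89 in mutant kainate arrays. Its groups overlapped in every comparison, with kainate differences of -0.07 (SE 0.18) in controls and 0.31 (SE 0.18) in mutants. Xbp1, whose spliced RNA encodes a factor of the same response, stood at 9.67, 9.55 and 9.32, at 9.16, 9.75 and 9.13, at 9.69, 9.30 and 9.21, and at 9.32, 9.80 and 9.52 in the same order of groups. Its groups overlapped too, with differences of -0.17 (SE 0.20) and 0.15 (SE 0.20), and the probe set gives the RNA level and not its splicing.

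Hmox1, the inducible haem oxygenase of the oxidative stress response, stood at 4.48, 4.39 and 4.30 in control saline, 4.43, 4.41 and 3.97 in control kainate, 4.64, 4.36 and 4.37 in mutant saline and 4.51, 4.88 and 4.63 in mutant kainate arrays. All mutant kainate arrays lay above all control kainate arrays, by 0.40 in the mean (SE 0.14), and the difference did not pass (adjusted p = 0.53). The kainate differences of Hmox1 were -0.12 (SE 0.14) in controls and 0.21 (SE 0.14) in mutants. For the 4 genes of this role, 1 rose in controls (Ppp1r15a) and 0 passed in mutants, with medians of -0.10 and 0.26.

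**Figure D1:**
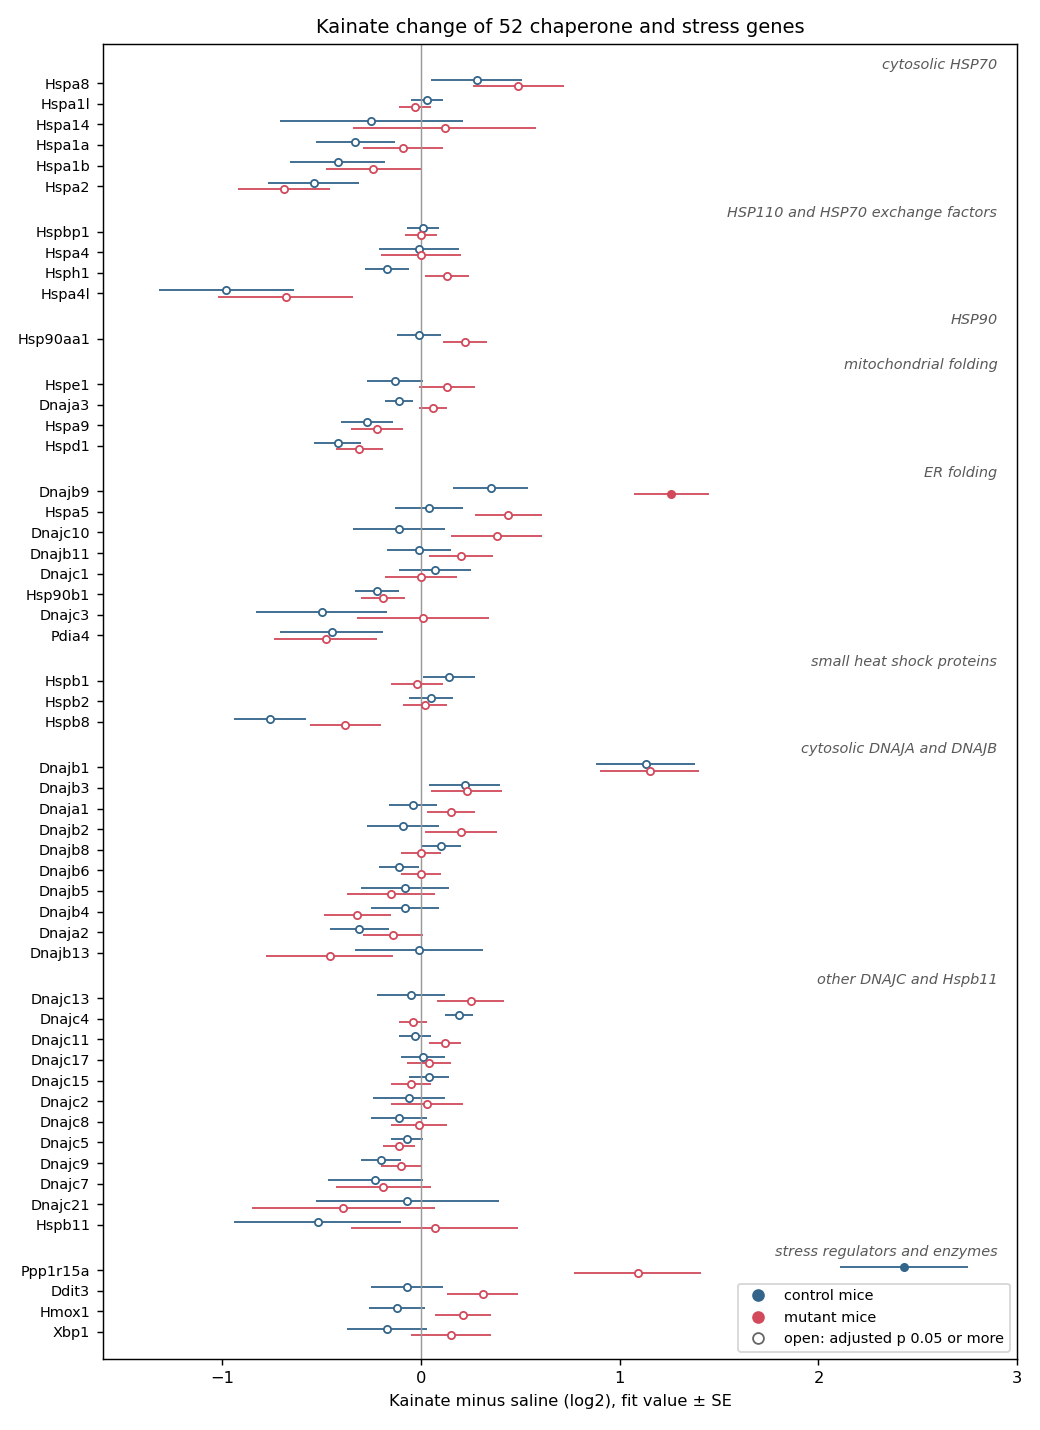
Kainate minus saline (log2, fitted value with its SE, n = 3 arrays per group) for each of the 52 genes in control (blue) and mutant (red) mice, ordered by role; filled points passed an adjusted p of 0.05. Ppp1r15a in controls (2.43) and Dnajb9 in mutants (1.26) are the filled points, Dnajb1 has nearly the same value in both genotypes, and most other genes lie within 0.5 of 0.

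Genes of the same stress pathways that the naming rule does not take give a context. Of 80 such genes on a list, 65 had a probe set with 1 symbol: 13 heat shock factors and co-chaperones, 8 subunits of the chaperonin CCT, 15 of ER folding, 14 of the integrated stress response and 15 of oxidative stress. In controls 1 of 65 rose (Atf3) and 0 fell, and in mutants 2 rose (Atf3 and Cebpb) and 0 fell. These are on the integrated stress response list, where 13 of 14 genes in controls and 12 of 14 in mutants did not pass. The medians of that list were 0.13 in controls and 0.00 in mutants. Atf3, which encodes a repressor induced by many stresses, gave a rise of 4.61 (SE 0.29) in controls and of 2.82 (SE 0.29) in mutants. Cebpb, a factor induced in the same branch, rose by 1.65 (SE 0.21) in mutants and by 1.33 averaged over genotypes, and its difference in controls was 1.02 (SE 0.21, adjusted p = 0.147).

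Atf3 also had the value with the smallest p of the pathway genes in the interaction, -1.80 (SE 0.41, unadjusted p = 0.00117, adjusted p = 0.939). Cebpb followed with 0.63 and P4hb, a protein disulfide isomerase, with -0.44. Both lean on the control kainate replicate 3 array. Cebpb stood at 8.18 on it, against 9.11 and 8.80 on the other arrays of the group, and P4hb at 5.26, against 4.73 and 4.56. Their interactions without that array are not given here. Under kainate Atf3 was lower in mutants by the test (-1.75, SE 0.29, adjusted p = 0.0382). It stood at 9.58, 9.22 and 8.22 in control kainate and at 7.50, 7.35 and 6.92 in mutant kainate arrays, with no overlap. No pathway gene passed between genotypes under saline, where Asns, the asparagine synthetase, had the smallest p with -0.47, or averaged over treatments, where it was Atf3 with -0.85. None of the 13 heat shock factors and co-chaperones, 8 CCT subunits, 15 ER genes or 15 oxidative stress genes passed in any of the 7 contrasts.

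In the ER lumen, Dnajb9 (ERdj4), a J-domain protein that assists the HSP70 protein BiP and the disposal of misfolded protein, was the gene with the smallest p in the interaction. It stood at 8.19, 8.75 and 8.63 in control saline and at 8.68, 9.28 and 8.67 in control kainate arrays. In mutants it stood at 8.43, 8.37 and 8.52 under saline and at 9.67, 9.91 and 9.52 under kainate. The mutant kainate arrays lay above all 9 other arrays, while the control groups overlapped.

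In mutants Dnajb9 rose 2.4-fold (log2 1.26, SE 0.19, adjusted p = 0.0195 by limma, n = 3), and in controls its difference was 0.35 (SE 0.19, adjusted p = 0.729). The difference between the responses was 0.91 (SE 0.27, 95% interval 0.31 to 1.50, unadjusted p = 0.00654), which did not pass after adjustment (adjusted p = 0.939), and it was 0.80 without the control kainate replicate 3 array. Under kainate the mutants stood 0.82 above controls (SE 0.19, adjusted p = 0.183). The call in mutants was lost when any 1 of the mutant saline arrays or the mutant kainate replicate 1 or 2 array was left out, with adjusted p between 0.0593 and 0.123 and changes between 1.15 and 1.30. The averaged rise of 0.81 (adjusted p = 0.0199) was lost without the control saline replicate 3, the mutant saline replicate 2 or 3 or the mutant kainate replicate 2 array, with adjusted p between 0.055 and 0.0703. It was also lost with centring on array medians (0.81, adjusted p = 0.0751) and with probe sets averaged per gene (0.49, adjusted p = 0.197). A dimmer Dnajb9 probe set (percentile 71.9, against 88.1) gave 0.79 in mutants (SE 0.32, adjusted p = 0.703), -0.46 in controls (SE 0.32) and 1.26 for the interaction (SE 0.45, unadjusted p = 0.018). Without the control kainate replicate 3 array, which was low on it, these were -0.04 in controls and 0.84 for the interaction.

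On the dimmer probe set the values were 6.82, 6.93 and 5.62 in control kainate and 7.89, 7.76 and 7.34 in mutant kainate arrays, against 6.76, 6.91 and 7.10 in control saline and 6.47, 7.08 and 7.06 in mutant saline. Both Dnajb9 probe sets therefore had all mutant kainate arrays above all other arrays. With the probe sets of each gene averaged, the change in mutants was 1.03 and did not pass (adjusted p = 0.127).

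The other ER genes passed nowhere. Hspa5, which encodes BiP and is the standard marker of the unfolded protein response, stood at 11.48, 11.82 and 11.49 in control saline, 11.39, 11.96 and 11.56 in control kainate, 11.44, 11.63 and 11.52 in mutant saline and 11.85, 12.26 and 11.80 in mutant kainate arrays. All mutant kainate arrays lay above all mutant saline arrays, and the control groups overlapped. Its differences were 0.44 in mutants (SE 0.17, unadjusted p = 0.0263, adjusted p = 0.681) and 0.04 in controls (SE 0.17), with an interaction of 0.40 (95% interval -0.13 to 0.93).

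Hsp90b1, the ER member of the HSP90 family, stood at 10.42, 10.63 and 10.64, at 10.36, 10.35 and 10.32, at 10.41, 10.52 and 10.79, and at 10.35, 10.46 and 10.33 in control saline, control kainate, mutant saline and mutant kainate arrays. Its control kainate arrays lay below all control saline arrays, the mutant groups overlapped, and the averaged kainate difference was -0.21 (SE 0.07, adjusted p = 0.281). Pdia4, a disulfide isomerase, stood at 6.87, 6.95 and 7.73, at 6.99, 6.63 and 6.58, at 7.20, 7.03 and 7.72, and at 6.92, 6.48 and 7.09 in the same order. Its groups overlapped, with similar differences of -0.45 in controls and -0.48 in mutants (SE 0.26 each).

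The remaining ER genes are J-domain proteins. Dnajc10, a disulfide reductase, had all mutant kainate arrays above all mutant saline arrays (0.38, SE 0.23), against -0.11 in controls. Dnajc3, an inhibitor of the eIF2 alpha kinase PERK, had differences of -0.50 in controls (SE 0.33) and 0.01 in mutants, and its control kainate replicate 3 value of 6.78 lay far below the other arrays of the group (7.99 and 8.47), and without it the control difference was -0.02. Dnajb11, a cofactor of BiP, had -0.01 and 0.20, and Dnajc1 had 0.07 and 0.00. Among the 8 ER genes, 7 had a positive genotype difference under kainate, with a median of 0.26, and 6 a positive interaction, with a median of 0.30. Over all probe sets in the upper part of the level range, where these genes lie, 65.2% and 66.1% were positive. Without the control kainate replicate 3 array these ER counts were 5 and 6 of 8, and both medians were 0.03.

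In the cytosol, Dnajb1 (HSP40) gave the same value in both genotypes. It stood at 7.66, 7.77 and 7.75 in control saline and at 9.26, 8.91 and 8.42 in control kainate arrays. In mutants it stood at 7.45, 7.96 and 7.87 under saline and at 9.25, 9.08 and 8.40 under kainate. Each kainate array lay above each saline array, and the replicate 3 arrays were the lowest of both kainate groups.

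Averaged over genotypes Dnajb1 rose 2.21-fold (log2 1.14, SE 0.18, adjusted p = 0.0135 by limma, 6 arrays against 6). Singly, the differences were 1.13 in controls (SE 0.25, adjusted p = 0.175) and 1.15 in mutants (SE 0.25, adjusted p = 0.17), which did not pass. The difference between them was 0.02, with a 95% interval of -0.76 to 0.80 that leaves room for unequal responses. The averaged call held with each array left out, with adjusted p up to 0.0484, and was lost when arrays were centred on their medians (1.15, adjusted p = 0.0536).

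**Figure D2:**
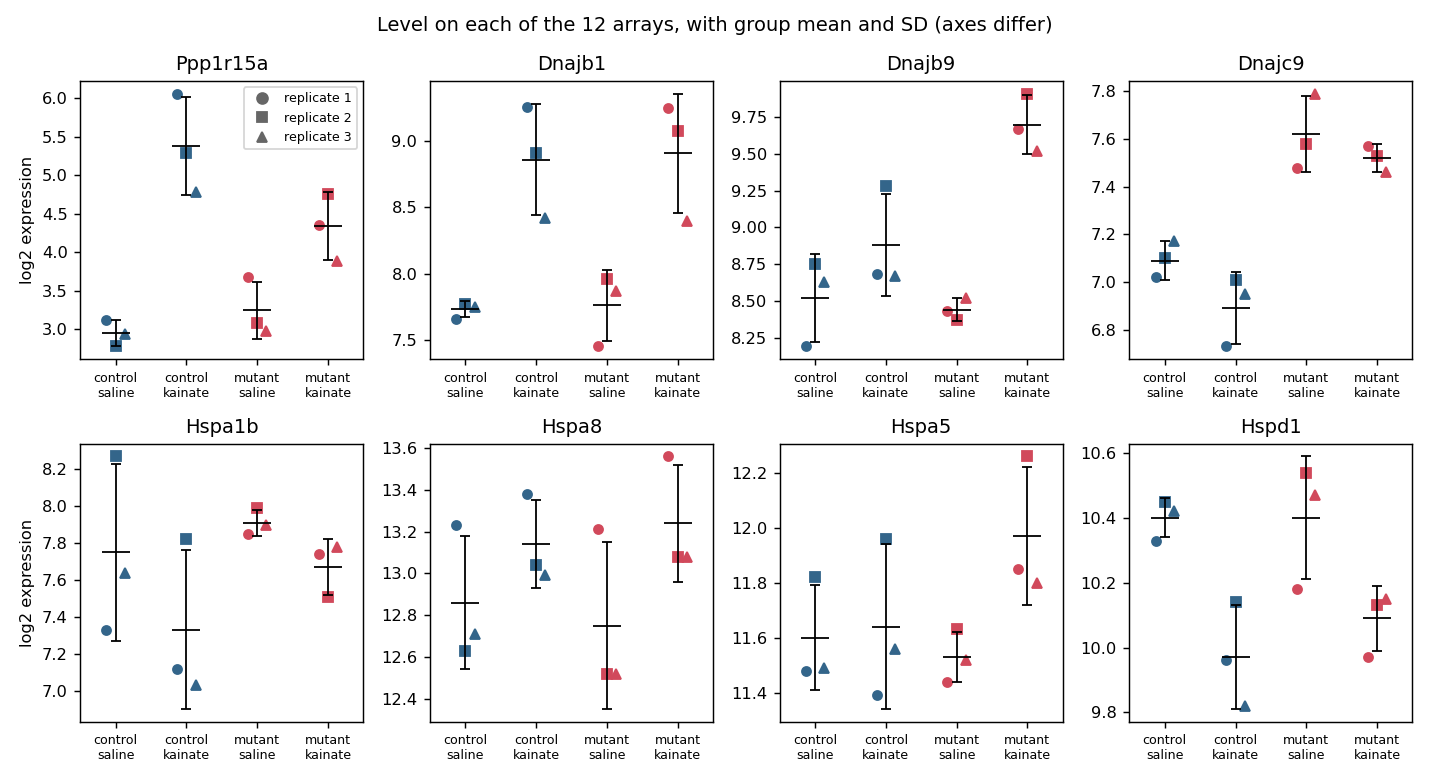
Log2 expression on each of the 12 arrays, by group. The upper row holds the 4 genes that passed in the main fit, and the lower row 4 textbook members. Horizontal lines and bars give the group mean and SD (n = 3), symbols give the replicate number, and the axes differ between panels. Ppp1r15a and Dnajb1 separate kainate from saline in both genotypes, Dnajb9 in mutants, and Dnajc9 separates the genotypes.

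The HSP70 genes with which Dnajb1 works did not pass in the main fit. Hspa1a, an inducible HSP70, stood at 8.28, 7.97 and 7.71 in control saline, 7.86, 7.85 and 7.27 in control kainate, 8.14, 8.28 and 8.05 in mutant saline and 8.35, 7.98 and 7.85 in mutant kainate arrays. Hspa1b, its near-identical neighbour, stood at 7.33, 8.27 and 7.64, at 7.12, 7.82 and 7.03, at 7.85, 7.99 and 7.90, and at 7.74, 7.51 and 7.78. The groups of Hspa1a overlapped in both genotypes, and for Hspa1b the mutant kainate arrays lay below all mutant saline arrays.

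The kainate differences were -0.33 in controls and -0.09 in mutants for Hspa1a (SE 0.20 each), and -0.42 and -0.24 for Hspa1b (SE 0.24 each). Neither gene had a positive kainate difference at 1 h, while Dnajb1, another known target of HSF1, rose. That difference between genes was not tested. The probe sets of the pair may bind RNA of both genes, so their values are not independent.

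Hspa8, the constitutive HSP70 that also uncoats clathrin vesicles at synapses, stood at 13.23, 12.63 and 12.71 in control saline, 13.38, 13.04 and 12.99 in control kainate, 13.21, 12.52 and 12.52 in mutant saline and 13.56, 13.08 and 13.08 in mutant kainate arrays. The replicate 1 array was the highest in every group, and kainate and saline arrays overlapped in both genotypes. The averaged difference was 0.39 (SE 0.16) and did not pass (adjusted p = 0.368). It passed with replicate 1 as a batch (0.39, SE 0.06, adjusted p = 0.0097) and with replicates 2 and 3 alone (0.45, SE 0.07, adjusted p = 0.0144). Hspa2, an HSP70 best known from germ cells, had -0.54 in controls (SE 0.23) and -0.69 in mutants (SE 0.23), with all mutant kainate arrays below all mutant saline arrays (averaged -0.61, SE 0.16, adjusted p = 0.127). The averaged Hspa2 value passed with replicate 1 as a batch (adjusted p = 0.0372) and with replicates 2 and 3 alone (-0.85, SE 0.11, adjusted p = 0.00886). Hspa14 had -0.25 and 0.12 (SE 0.46 each), and Hspa1l, which lies in the dim range, 0.03 and -0.03.

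Of the HSP110 proteins and exchange factors, Hsph1, an HSP110 protein inducible by heat, stood at 11.82, 11.87 and 11.66, at 11.60, 11.84 and 11.41, at 11.65, 11.59 and 11.57, and at 11.80, 11.80 and 11.60 in the 4 groups. Its mutant saline arrays lay below all control saline arrays and its kainate groups overlapped, with kainate differences of -0.17 and 0.13 (SE 0.11 each). Hspa4l, a relative of Hspa4 that is also inducible by stress, had differences of -0.98 in controls (SE 0.34) and -0.68 in mutants (SE 0.34). The control value was the most negative of the 52, but without the control kainate replicate 3 array it was -0.65 and that of Hspb8, -0.80, was the most negative. Averaged it was -0.83 (SE 0.24, adjusted p = 0.162). Hspa4 had -0.01 and 0.00 on its brightest probe set. A dimmer one (percentile 75.6) gave 0.27 in both genotypes (SE 0.13), and another (percentile 76.3) gave -0.39 and -0.50 (SE 0.31). The dimmest lay between -0.13 and 0.10, and none of these differences passed. Hspbp1, an exchange factor, had 0.01 and 0.00.

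Hsp90aa1, the inducible cytosolic HSP90, stood at 12.90, 13.02 and 13.15, at 12.87, 13.17 and 13.01, at 12.70, 12.93 and 12.95, and at 12.99, 13.11 and 13.12. All mutant kainate arrays lay above all mutant saline arrays, by 0.22 in the mean (SE 0.11, adjusted p = 0.867), and the control groups overlapped (-0.01). The small heat shock proteins bind unfolding clients without ATP. Hspb1 (HSP25), which rises in glia and neurons after injury, stood at 3.14, 3.01 and 2.96, at 3.01, 2.99 and 3.51, at 3.08, 2.97 and 2.96, and at 2.99, 2.95 and 3.00 in the same order of groups. Its groups overlapped, and the probe set lies in the dim range (percentile 28.8).

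Hspb8, a small heat shock protein that acts with BAG3 in selective autophagy, stood at 5.88, 6.38 and 5.85 in control saline, 4.88, 5.60 and 5.34 in control kainate, 6.34, 6.31 and 6.22 in mutant saline and 5.83, 5.99 and 5.90 in mutant kainate arrays. The kainate arrays lay below all saline arrays in both genotypes, and the mutant kainate arrays lay above all control kainate arrays. The kainate differences were -0.76 in controls (SE 0.18, adjusted p = 0.225) and -0.38 in mutants (SE 0.18), and averaged -0.57 (SE 0.13, adjusted p = 0.0731). None of these passed, but the averaged fall did with replicate 1 as a batch (adjusted p = 0.0317). It did not pass with replicates 2 and 3 alone (-0.48, adjusted p = 0.0832). A dimmer Hspb8 probe set (percentile 30, against 63) gave kainate differences of 0.05 in controls and 0.00 in mutants. Hspb2 had 0.05 and 0.02.

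In mitochondria, Hspd1 (HSP60) and Hspe1 (HSP10) form the folding chamber and are encoded head to head. Hspd1 stood at 10.33, 10.45 and 10.42 in control saline, 9.96, 10.14 and 9.82 in control kainate, 10.18, 10.54 and 10.47 in mutant saline and 9.97, 10.13 and 10.15 in mutant kainate arrays. Every kainate array lay below every saline array of its genotype. The differences were -0.42 in controls and -0.31 in mutants (SE 0.12 each), and averaged -0.37 (SE 0.08, adjusted p = 0.0716), just outside the threshold. It passed with replicate 1 as a batch (adjusted p = 0.0289) and with replicates 2 and 3 alone (-0.41, adjusted p = 0.0461). A dimmer Hspd1 probe set (percentile 46.1, against 95.1) gave kainate differences of 0.03 in controls and -0.06 in mutants (SE 0.08 each).

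Hspe1 stood at 10.28, 10.78 and 10.49, at 10.27, 10.64 and 10.26, at 10.20, 10.21 and 10.34, and at 10.35, 10.50 and 10.28, with overlapping kainate and saline arrays and differences of -0.13 and 0.13 (SE 0.14 each). The partners thus gave unlike values, and the difference between them was not tested. Hspa9, the mitochondrial HSP70 mortalin, had -0.27 in controls and -0.22 in mutants (averaged -0.24, SE 0.09, adjusted p = 0.3), and its partner Dnaja3 had -0.11 and 0.06, with all kainate arrays below all saline arrays in controls and above them in mutants.

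Of the other cytosolic DNAJA and DNAJB genes, 9 apart from Dnajb1, none passed. Their kainate differences ran from -0.31 (Dnaja2) to 0.22 (Dnajb3) in controls and from -0.46 (Dnajb13, a sperm and cilia protein) to 0.23 (Dnajb3) in mutants. Dnaja1, an HSP70 partner in the cytosol, had -0.04 and 0.15, and Dnajb6, a suppressor of polyglutamine aggregation, -0.11 and 0.00. Dnajb4 had all mutant kainate arrays below all control kainate arrays (difference -0.40, SE 0.17, adjusted p = 0.53). Dnajb2, a neuronal J-domain protein, had -0.09 and 0.20, and Dnajb5 had -0.08 and -0.15. Dnajb8, a testis protein, and Dnajb3 lie in the dim range.

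Among the DNAJC genes, Dnajc9 differed between genotypes. It stood at 7.02, 7.10 and 7.17 in control saline and at 6.73, 7.01 and 6.95 in control kainate arrays. In mutants it stood at 7.48, 7.58 and 7.79 under saline and at 7.57, 7.53 and 7.46 under kainate. All 6 mutant arrays lay above all 6 control arrays.

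Averaged over treatments Dnajc9 was 1.49-fold higher in mutants (log2 0.57, SE 0.07, adjusted p = 0.00476 by limma), and the call held with each array left out, with adjusted p up to 0.0201. It was lost with quantile normalisation (0.50, adjusted p = 0.0884) and with replicates 2 and 3 alone (0.53, adjusted p = 0.0679). Under kainate alone the mutants stood 0.63 higher (SE 0.10, adjusted p = 0.0382), under saline alone 0.52 (SE 0.10, adjusted p = 0.165), and the interaction was 0.10 (95% interval -0.22 to 0.43). The call under kainate was lost when any 1 of 10 of the 12 arrays was left out, with adjusted p up to 0.156. In the same arrays the microglial marker list was higher in mutants: 7 of 10 measured markers were higher past the test in the averaged contrast, and their mean level was 6.88 to 6.92 in control saline, 6.96 to 7.08 in control kainate, 7.70 to 7.97 in mutant saline and 7.88 to 8.16 in mutant kainate arrays. Of the astrocyte markers 1 of 7 passed, Gfap, which was 1.62 higher (SE 0.21). The part of these cells in the Dnajc9 difference was not tested.

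Dnajc4, a mitochondrial J-domain protein, had the third smallest p in the interaction on small values. It stood at 6.53, 6.44 and 6.56 in control saline, 6.77, 6.62 and 6.70 in control kainate, 6.63, 6.60 and 6.64 in mutant saline and 6.56, 6.58 and 6.59 in mutant kainate arrays. The control kainate arrays lay above all control saline arrays, and the mutant kainate arrays lay below all mutant saline arrays. The differences were 0.19 (SE 0.07) and -0.04 (SE 0.07), and the interaction was -0.23 (SE 0.10, unadjusted p = 0.041, adjusted p = 0.939).

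The 10 other genes of this role had kainate differences between -0.52 (Hspb11, a subunit of the ciliary transport complex rather than a heat shock protein) and 0.04 (Dnajc15) in controls. In mutants they lay between -0.39 (Dnajc21) and 0.25 (Dnajc13, an endosomal protein). Hspb11 also had a positive genotype difference under kainate, 0.80 with an SE of 0.42, and it rests on the control kainate replicate 3 value of 5.02, against 6.45 and 7.04 on the other arrays of the group. Without that array it was 0.23, and the control kainate difference was 0.06. Dnajc5, the synaptic vesicle protein CSP alpha, had -0.07 in controls and -0.11 in mutants (SE 0.08 each). Dnajc7 had -0.23 and -0.19, and Dnajc21 -0.07 and -0.39. Dnajc2, Dnajc8, Dnajc11, Dnajc15 and Dnajc17 lay between -0.11 and 0.12 in both genotypes.

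**Figure D3:**
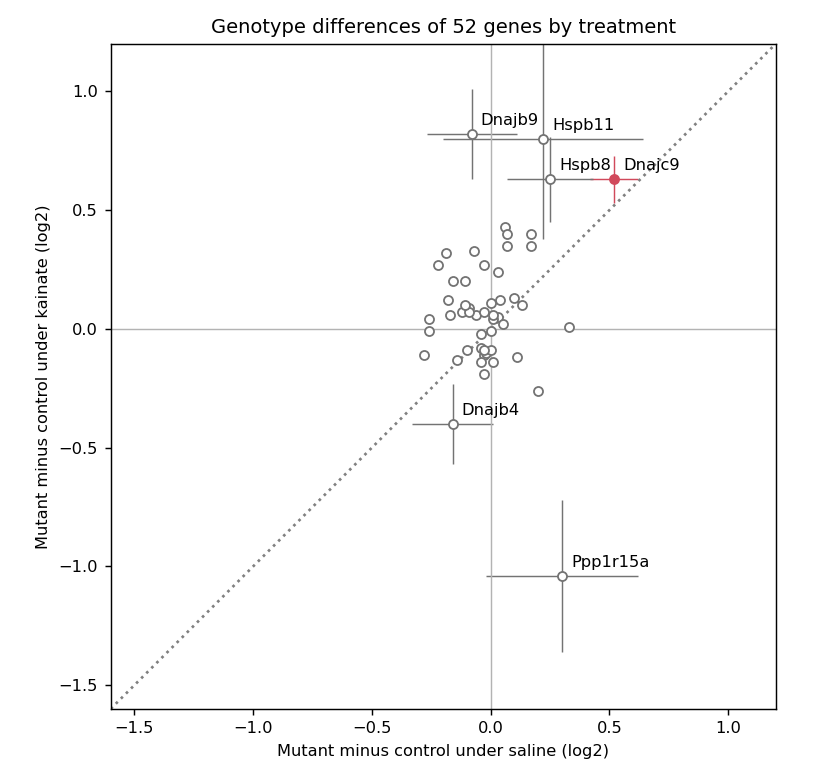
Mutant minus control (log2, fitted values with SE for the 6 named genes) under saline (horizontal) and under kainate (vertical) for the 52 genes; the red point passed an adjusted p of 0.05 and the dotted line marks equal differences. Dnajc9 lies near the line at 0.52 and 0.63, while Dnajb9 (-0.08 and 0.82) and Ppp1r15a (0.30 and -1.04) lie off it in opposite directions.

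Taken as a list, the genes moved little. In controls 45 of 52 differences lay within 0.5 of 0, and in mutants 47. The median was -0.07 in controls and 0.00 in mutants, against 0.05 and -0.02 over all probe sets, and the median of the interaction was 0.11 against -0.05. Positive interactions were found in 36 of 52 genes (69.2%, against 37.4% of all probe sets). These figures move with the level of the genes and with 1 array.

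The genes are mostly bright, with a median level at percentile 76.4 and 5 of 52 below the median level. Among probe sets above the median level 66.1% had a positive interaction, with a median of 0.08, and the median control response was -0.10. The control kainate replicate 3 array is low for bright probe sets and high for dim ones. Without it the control median of the list was -0.02 (all probe sets -0.03), the split of signs went from 15 positive and 37 negative to 22 and 30, and the median interaction was 0.03 (all probe sets 0.01), with 33 of 52 positive. Of the control differences 19 changed sign, among them Hspb11 (-0.52 to 0.06), Hmox1 (-0.12 to 0.03), Dnajc10 (-0.11 to 0.16), Dnajb2 (-0.09 to 0.12), Ddit3 (-0.07 to 0.09) and Dnajb11 (-0.01 to 0.16). The cause of this array's narrow range was not tested.

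Separation of the arrays took in more genes, and more in mutants than in controls, as it also did over all probe sets. The control comparison includes the kainate replicate 3 array. In controls 3 genes had all kainate arrays above all saline arrays (2.29% of all probe sets) and 6 had them below (4.75%). In mutants the counts were 8 above (4.98%) and 7 below (7.39%). The 3 in controls were Ppp1r15a, Dnajb1 and Dnajc4, and the 6 were Dnajc9, Hsp90b1, Hspa4l, Hspb8, Hspd1 and Dnaja3. Of the 6 genes that separated in both genotypes, Dnajb1, Ppp1r15a, Hspb8 and Hspd1 did so the same way, and Dnaja3 and Dnajc4 in opposite directions.

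**Figure D4:**
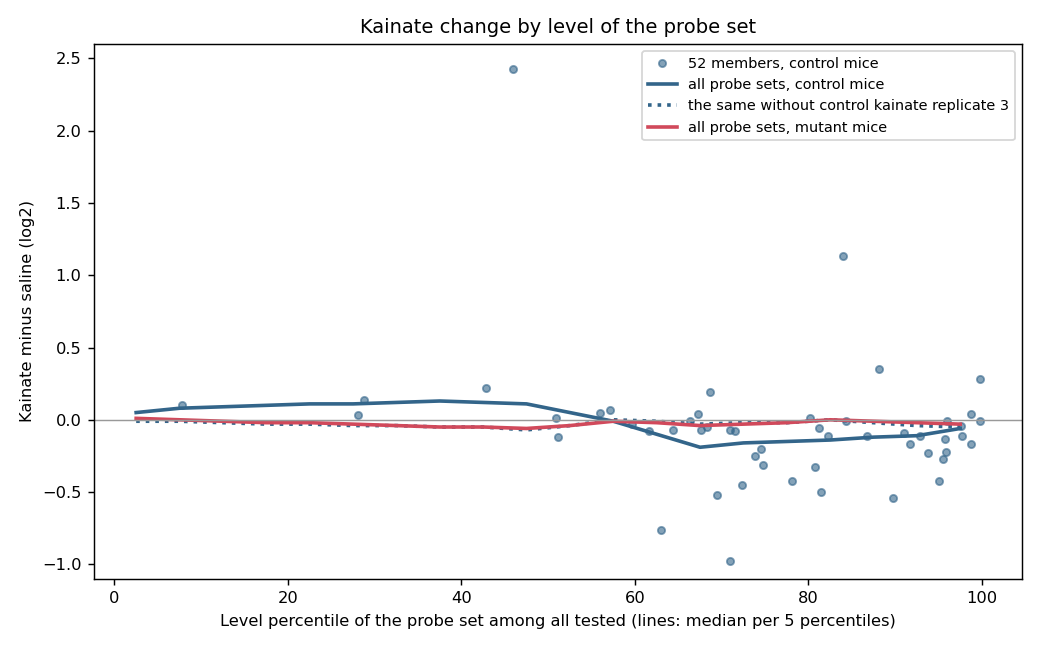
Kainate minus saline (log2) in control mice for the 52 genes (points) against the percentile of their mean level among 12422 probe sets, with the median over all probe sets per 5 percentiles in controls (blue), in controls without the replicate 3 kainate array (dotted) and in mutants (red). The blue line runs from 0.13 among dim probe sets down to -0.19 among brighter ones and the dotted and red lines stay within 0.07 of 0, and Ppp1r15a (2.43) and Dnajb1 (1.13) stand clear of all 3 lines.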

How the data were processed

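Each of 12 MG-U74A arrays (Affymetrix) measured total RNA of 1 pool. The authors deposited log2 values from GCRMA, run in R 2.4.1 per the submitters' processing notes. GCRMA corrects background with probe sequences, applies quantile normalisation and gives 1 value per probe set; its version is not given in the sources used here. Of 12488 probe sets, 66 controls were dropped and the other 12422 tested at any level. The platform annotation gave the symbols, and all 52 matched RefSeq.

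Groups were taken from the sample titles and compared with limma 3.58.1 in R 4.3.3: 1 mean per group over all 12 arrays (8 residual and 2.48 prior degrees of freedom), 7 contrasts, two-sided, with Benjamini-Hochberg adjustment over the 12422 probe sets and a threshold of 0.05. The fit was checked on simulated data. Errors are the fit's SE with 3 arrays per group, and the number of arrays limits the precision.

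The genes, the pathway and marker lists and the tests were chosen with earlier results of these data known, and the grouping by role was made after the values were seen. Values on every array are given for genes that passed in any contrast of the main fit and for the 3 with the smallest p in the interaction. They are also given for textbook inducible members (Hspa1a, Hspa1b, Hspa5, Hspa8, Hsp90aa1, Hsp90b1, Hspb1, Hspd1, Hspe1, Hsph1, Dnajb1, Hmox1, Ddit3, Xbp1, Pdia4, Ppp1r15a). Pathway genes are named where they passed, or where their p was among the 3 smallest. Marker lists covered microglia, astrocytes, oligodendrocytes, endothelium, blood, neurons, choroid plexus and neighbouring tissue. Promoters are 250 bases before the RefSeq start (GRCm38.p6). Alternatives were the replicate number as a block, replicate 1 as a batch, replicates 2 and 3 alone, quantile normalisation, centring on array medians, a filter at the median level, a robust prior with intensity trend, array weights, averaging per gene and leaving out each array. The batch without the control kainate replicate 3 array was added after seeing the data.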

Additional observations from a re-analysis of the deposited data

How the results depend on the processing

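The interaction called 0 of 52 genes under all 22 alternatives. The other counts below come without the share of all probe sets called by the same alternative. A larger count is therefore not a result about these genes. With array weights estimated gene by gene, 680 of all 12422 probe sets passed between genotypes under saline, against 17 in the main fit. In controls the count stayed at 1 except with array weights (6) and with only probe sets above the median level, which removes Ppp1r15a by its level (0). In mutants it was 1 in the report, 2 with replicate 1 as a batch, 3 with that batch and no control kainate replicate 3 array (chosen after seeing the data), 11 with array weights, and 0 with only replicates 2 and 3, with centring and with probe sets averaged per gene; leaving out 1 array gave 0 to 2. Averaged over genotypes it was 3 in the report, 7 with the batch, 8 with the batch and without the array, 7 with replicates 2 and 3, 14 with weights and 1 with centring; leaving out 1 array gave 2 to 4. The genotype count under saline was 0, but 1 (Dnajc9) with the batch and without the array and 7 with weights. Under kainate it was 1, but 0 with replicates 2 and 3, quantile normalisation, centring, the level filter and the trend with robust prior, and 0 to 1 with 1 array left out. Averaged over treatments it was 1, but 0 with replicates 2 and 3 and with quantile normalisation and 2 with weights. The median change in mutants, 0.00, was 0.04 with replicates 2 and 3 and with weights, 0.05 with centring, and -0.03 to 0.04 with 1 array left out. The values of the calls and of the 3 interactions with the smallest p kept their sign under all alternatives run. Others did not: without the control kainate replicate 3 array, 19 of 52 control differences, 11 interactions, 9 genotype differences under kainate and 7 averaged kainate differences changed sign, by rounded values. Where no cause is given, the cause was not tested.

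With the replicate number as a block, 6 genes passed for kainate averaged over genotypes, 4 higher and 2 lower: Hspa8 joined the 3 that rose, and Hspd1 and Hspb8 were the falls. The block changed no other count by more than 1.5 times. The numbers do not pair the arrays by the rule used, since same-number correlations of deviations from group means ran as low as -0.0109. They ran from 0.368 to 0.848 for replicate 1, from 0.302 to 0.583 for replicate 2 and from -0.0109 to 0.621 for replicate 3. Between groups, they ran from -0.697 to -0.336 for replicates 1 and 2 and from -0.722 to -0.00779 for replicates 1 and 3. For replicates 2 and 3 they ran from 0.0218 to 0.568. Of the 12 arrays, 11 correlated best with their own number, so replicate number left a structure that the main fit does not model. limma's default array weights ran from 0.0204 to 75.2 and called 8537 of 12422 probe sets between genotypes under saline, so they were estimated gene by gene instead (0.0321 to 6.17; 680 called), a choice made after seeing that result.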
